A study of Homo sapiens with 8 samples.

Results

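OSMI-2 was present in 4 of the 8 RNA sequencing libraries of LNCaP cells, and its effect was measured as those 4 against the 4 libraries without it, with the presence of AT7519 as a covariate. The groups, of 2 libraries each, were OSMI2 (40 µM OSMI-2) against Control, and Combination (40 µM OSMI-2 with 0.5 µM AT7519) against AT7519 (0.5 µM AT7519). Each cell treatment lasted 4 hours, the labels name no vehicle for Control, and their treatment field gives the doses in mM where the series design gives µM. LNCaP is a human prostate cancer line that depends on the androgen receptor, so all values come from 1 line. The labels do not say whether the 2 replicates of a group were separate cultures, so the p-values rest on a spread between libraries that may be technical.

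OGT attaches N-acetylglucosamine to serines and threonines of nuclear, cytosolic and mitochondrial proteins, the enzyme encoded by MGEA5 removes it, and the hexosamine pathway supplies the sugar. RNA polymerase II, chromatin regulators and signalling kinases carry this O-GlcNAc mark, and OGT is abundant in prostate cancer. OSMI-2 inhibits OGT. AT7519 inhibits several cyclin-dependent kinases, among them CDK9, which as part of P-TEFb releases paused RNA polymerase II into elongation. The comparison asks which mRNAs OSMI-2 changed in the same direction whether or not these kinases were inhibited.

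The libraries held 60152710 to 154367238 reads assigned to genes, and values are normalised counts, that is reads divided by 1 factor per library. A level of 3 reads, the floor used here, equals 1.76 to 5.47 normalised counts depending on the library and covers counting error only. Libraries with and without OSMI-2 were separated by the second principal component (12.7% of the variance), and those with and without AT7519 by the first (66.2%). Luminal prostate markers fitted the label, since 10 of 10 were tested and their summed level was 407220 to 534610 in libraries with OSMI-2 and 400310 to 480220 in those without. Leukocyte markers summed to at most 1.82 with OSMI-2 and 5.07 without. Markers of basal cells, endothelium and neuroendocrine cells summed to 58.9 to 106, 1237 to 1506 and 69.7 to 104 with OSMI-2, against 41.8 to 61.0, 1132 to 1484 and 64.7 to 97.6 without. Nearly all of each sum came from 1 gene, KRT14, VWF and SYP in turn. None of these 3 passed the main test described below. KRT5 reached 2.94, TP63 1.82, CHGA 3.93 and NCAM1 6.87, CDH5 was 0 in every library, and PECAM1 had no deposited values. Stromal markers summed to 2213 to 4233 with OSMI-2 and 2230 to 3534 without. Of these COL1A1 was present at 1814 to 3726 normalised counts over all libraries, while COL1A2 reached 0.829 and DCN 7.29. Mitochondrial mRNAs took 4.99% to 5.53% of reads in OSMI2 and 4.45% to 4.69% in Control, and 7.33% to 7.73% in Combination and 6.57% to 7.04% in AT7519, so the mitochondrial share was higher with OSMI-2 in both states.

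OSMI-2 changed many mRNAs by small amounts, lowering genes of protein folding, ribosome assembly, DNA replication, mitosis and the proteasome, and raising genes of the integrated stress response together with OGT itself. Of 55737 genes 19393 averaged 10 or more normalised counts and were tested. limma, with Benjamini-Hochberg adjustment over all of them and a threshold of 0.05, called 4067 (21.0%), of which 1458 (7.52%) rose and 2609 (13.5%) fell. The split into rises and falls depended on the scale: with library totals set equal 2330 rose and 1399 fell, with upper quartiles set equal 2305 and 1438, with all quantiles set equal 1595 and 1594, and with the 13 mitochondrial mRNAs set equal 732 and 3758. On the deposited scale the median gene changed by -0.018 (log2), and on the mitochondrial scale by -0.11. Directions given below are those of the values as deposited, with exceptions on other scales named beside the result.

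A gene was counted as shared when it was called and, within each AT7519 state on its own, both libraries with OSMI-2 lay above both without it, or both below, in the same direction in the 2 states. The 2 states share no library. Shared genes numbered 3806 (19.6%), with 1368 higher (7.05%) and 2438 lower (12.6%). Without regard to the test, 30.7% of all tested genes had libraries that did not overlap in both states in 1 direction. Another 261 called genes overlapped in at least 1 state, and 2 called genes had opposite signs in the 2 states. The median change of shared rises was 0.37 (log2) in OSMI2 against Control and 0.57 in Combination against AT7519, and that of shared falls was -0.27 and -0.34. Most effects were therefore under 2-fold, and 131 shared rises and 39 shared falls reached 1 on the log2 scale. In 1994 cases (597 higher and 1397 lower) the gene was shared whichever of the 8 libraries was left out. The count of 4067 called genes came to 2565 without Combination replicate 1 and 2667 without Combination replicate 2, where a lone library was assumed to vary like the other groups.

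Genes called in either state mostly had the same sign in the other. Within the model of 4 group means, 586 genes (3.02%) were called in OSMI2 against Control, and 559 of these (95.4%) had the same sign in Combination against AT7519. In Combination against AT7519 3815 genes (19.7%) were called, and 3404 of these (89.2%) had the same sign in OSMI2 against Control. Of all tested genes 13662 (70.4%) had the same sign in both. Both states called 482 genes, 480 of them in 1 direction. Across all 19393 genes, which are not independent replicates and share their libraries, the 2 states' log2 changes correlated with Pearson r = 0.351 and Spearman rho = 0.451. Among the 9344 genes that averaged 1000 or more normalised counts r was 0.618. The OSMI-2 effect itself differed between states in 201 genes (1.04%) by the interaction test, and 76 of the shared genes were among them, 71 falls and 5 rises.

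**Figure D1:**
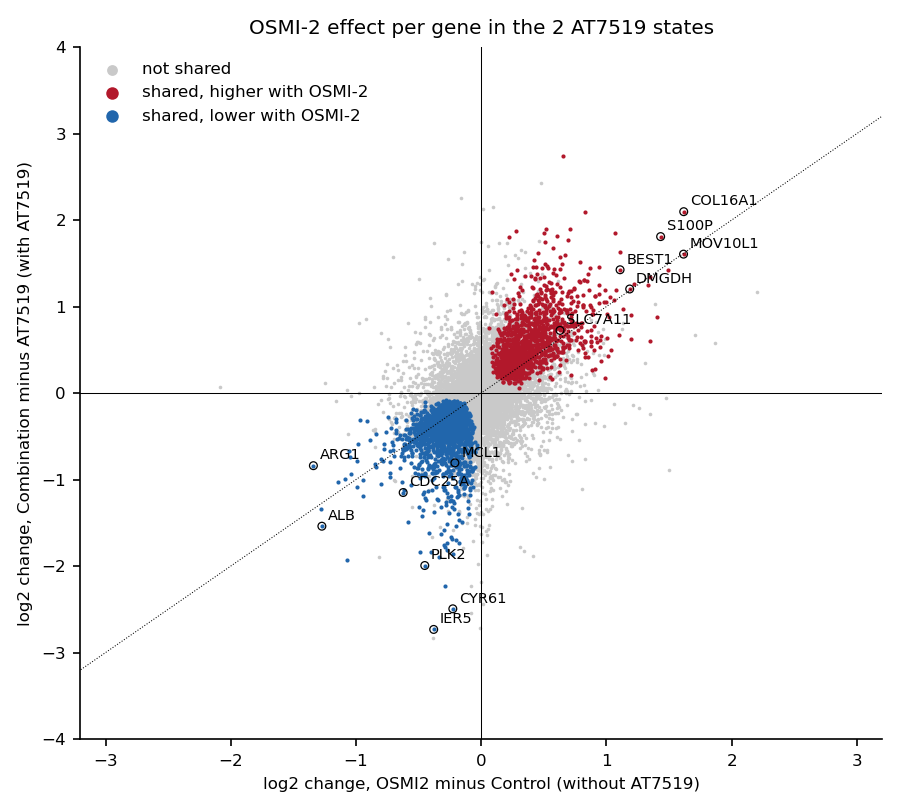
Change of each gene that averaged 50 or more normalised counts (15285 points) in OSMI2 minus Control on the horizontal axis and in Combination minus AT7519 on the vertical axis, both in log2 units, with the dotted line marking equal changes. Shared rises (red) and shared falls (blue) lie in opposite quadrants, and IER5, CYR61 and PLK2 lie far below the line.

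The largest shared rises included a collagen, a calcium-binding protein, ion channel and enzyme genes, and non-coding RNA. COL16A1, which encodes a collagen that associates with fibrils, had 1502 and 1112 normalised counts in OSMI2 libraries, against 418 and 424 in Control libraries. It had 1994 and 1802 in Combination libraries, against 347 and 563 in AT7519 libraries. The lowest library with OSMI-2 was well above the highest without it in each state, and the gene rose 3.62-fold (log2 change 1.86, SE 0.16, adjusted p = 0.000134). S100P, a small calcium-binding protein, had 352 and 527 in OSMI2 against 135 and 188 in Control, and 638 and 983 in Combination against 214 and 237 in AT7519. It rose 3.07-fold (log2 change 1.62, SE 0.18, adjusted p = 0.00036).

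BEST1, a chloride channel gene, had 2280 and 1768 normalised counts in OSMI2 against 947 and 915 in Control, and 2787 and 2765 in Combination against 987 and 1082 in AT7519. It rose 2.41-fold (adjusted p = 0.000129), and FTH1 lies across it on the other strand, which matters if counting ignored the strand. DMGDH, a mitochondrial enzyme of choline breakdown that overlaps BHMT and BHMT2 on the other strand, had 469 and 261 in OSMI2 against 170 and 138 in Control, and 343 and 237 in Combination against 118 and 129 in AT7519 (2.29-fold, adjusted p = 0.00175). PDE2A, a cyclic nucleotide phosphodiesterase, rose 2.75-fold (adjusted p = 0.00108). PRSS1, a trypsinogen with close relatives in the genome, rose 2.54-fold (adjusted p = 0.00231), and the germ line helicase MOV10L1 rose 3.05-fold (adjusted p = 0.00395). KIAA1199, a hyaluronan-binding protein, and LPO, lactoperoxidase, rose 2.36-fold and 2.29-fold (adjusted p of at most 0.0103), with MESD and MKS1 across them on the other strand.

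Other large rises rested on few reads in some libraries or lost their call when single libraries were left out. The non-coding RNA LINC00930 had 82.4 and 185 normalised counts in OSMI2 against 30.6 and 61.4 in Control, and 22.6 and 41.9 in Combination against 7.61 and 15.3 in AT7519. Its 2.75-fold rise (adjusted p = 0.0144) was lost without OSMI2 replicate 2 (adjusted p = 0.0584). The readthrough transcript ANKHD1-EIF4EBP3, whose reads cannot be told apart from those of ANKHD1 and EIF4EBP3 on the same strand, rose 3.24-fold (adjusted p = 0.012). It had 116 and 180 in OSMI2 against 76.5 and 110 in Control, and 168 and 173 in Combination against 15.2 and 39.7 in AT7519. That was 1.57-fold higher without AT7519 (adjusted p = 0.434) and 6.69-fold with it (adjusted p = 0.000411). CCDC114, an axonemal dynein docking factor, rose 2.34-fold (adjusted p = 0.0343) and lost its call without any of 4 libraries, Control replicate 2, AT7519 replicate 2 and both Combination libraries, with adjusted p up to 0.112. CCDC114 was 1.62-fold higher without AT7519 (adjusted p = 0.517) and 3.40-fold with it (adjusted p = 0.0204). For the 12 largest rises the interaction gave adjusted p of at least 0.0972.

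Among the 12 largest shared falls, some were of like size in both states. ALB, the albumin gene, had 80.5 and 35.6 normalised counts in OSMI2 against 102 and 169 in Control, and 98.4 and 93.0 in Combination against 254 and 309 in AT7519. It fell 2.65-fold (log2 change -1.41, SE 0.25, adjusted p = 0.00277). ARG1, arginase, which overlaps MED23 on the other strand, had 64.8 and 54.7 in OSMI2 against 126 and 184 in Control, and 84.1 and 89.4 in Combination against 165 and 147 in AT7519. It fell 2.13-fold (adjusted p = 0.00267). CCDC83 fell 2.12-fold (adjusted p = 0.00281), and TRDN, the triadin of calcium release sites in muscle, fell 2.48-fold (adjusted p = 0.0072). For these 4 genes the interaction gave adjusted p from 0.784 to 0.99.

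Of the other 8 large falls 5 were deeper in the presence of AT7519 by the interaction test. PLK2, a polo-like kinase gene, had 2107 and 1989 normalised counts in OSMI2 against 2901 and 2699 in Control, and 464 and 301 in Combination against 1821 and 1222 in AT7519. Groups did not overlap in either state, but PLK2 was 1.37-fold lower without AT7519 (adjusted p = 0.235) and 3.98-fold with it (adjusted p = 5.27e-05), and the interaction passed (adjusted p = 0.0184). The same held for IER5, an immediate early gene, for CYR61, a secreted matrix-associated protein, for MIR17HG, the host transcript of a growth-promoting microRNA cluster, and for DUSP2, a MAP kinase phosphatase. In Combination against AT7519 IER5 fell 6.65-fold, CYR61 5.63-fold, MIR17HG 4.68-fold and DUSP2 3.58-fold (adjusted p of at most 0.000273), while in OSMI2 against Control their log2 changes were -0.38, -0.23, -0.29 and -0.40 (adjusted p of at least 0.325). Of the remaining large falls, SNAI1, a repressor of E-cadherin, fell to 5.13 and 1.82 normalised counts in Combination, close to the floor. It had 26.6 and 8.13 in AT7519. LRFN2 had 10.3 and 10.9 in Combination against 49.5 and 35.6 in AT7519. It was 1.26-fold lower without AT7519 (adjusted p = 0.616) and 3.71-fold with it (adjusted p = 0.000684). KBTBD8 was 1.40-fold lower without AT7519 (adjusted p = 0.403) and 3.58-fold with it (adjusted p = 0.000594). The interaction test did not call LRFN2 or KBTBD8 (adjusted p = 0.1 and 0.145).

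Several of these falls lost their call when single libraries were left out. In the main effect IER5 did not pass without AT7519 replicate 1 or 2 (adjusted p = 0.0578 and 0.0755). CYR61 did not pass without AT7519 replicate 2 or Combination replicate 1 (0.0618 and 0.0579 as adjusted p). MIR17HG did not pass without AT7519 replicate 2, Combination replicate 1 or Combination replicate 2 (adjusted p = 0.0625, 0.0623 and 0.0566). LRFN2, a synaptic adhesion gene, was lost without the same 3 libraries (adjusted p up to 0.059), and SNAI1 without Control replicate 2, OSMI2 replicate 1, AT7519 replicate 1 or Combination replicate 2 (adjusted p up to 0.0694). PLK2, DUSP2 and KBTBD8, an adaptor of a ubiquitin ligase, passed without each library in turn.

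**Figure D2:**
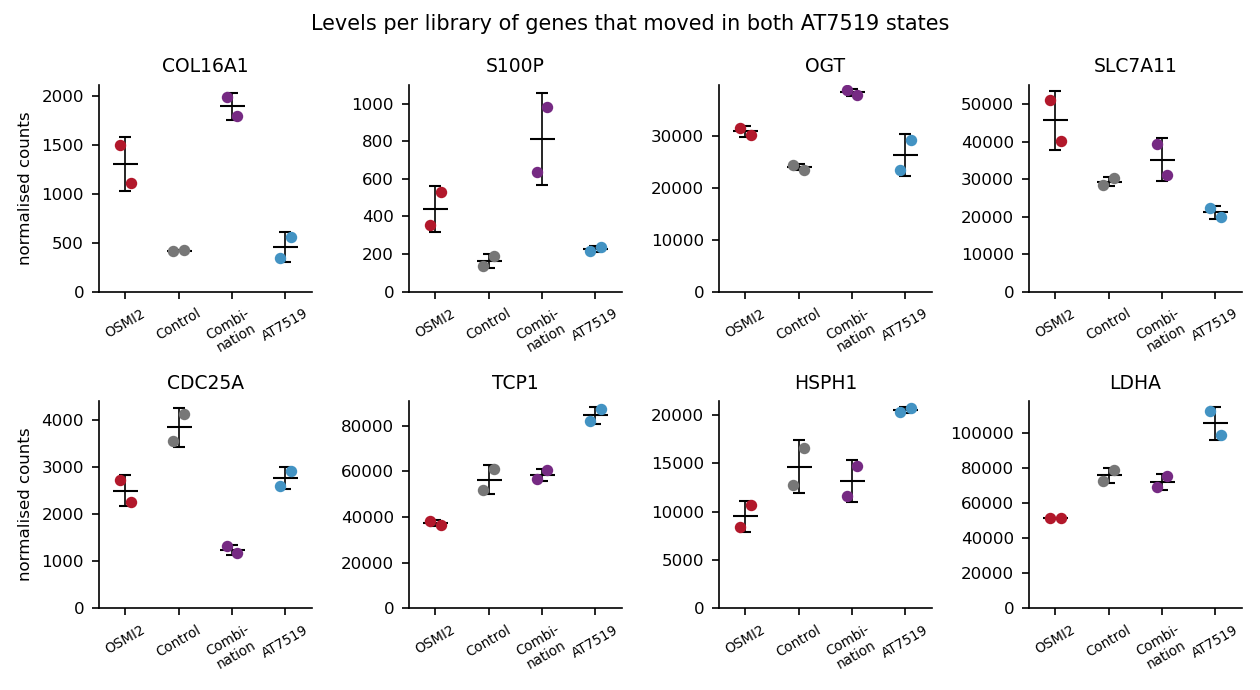
Normalised counts per library for 8 genes, with points for the 2 libraries of each group, a bar at their mean and whiskers of 1 SD. In each of the 8 genes both OSMI2 points lie on 1 side of both Control points, and both Combination points on the same side of both AT7519 points, higher in the upper row and lower in the lower row.

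Described by function, OSMI-2 moved gene lists in blocks. The lists hold 8 to 78 tested genes each, and their counts can be read against the shares of all tested genes, 7.52% called higher and 13.5% called lower, and against the median change of all tested genes, -0.018 (log2). Counts per state have their own background. Of all 19393 tested genes 125 were called higher and 461 lower in OSMI2 against Control. In Combination against AT7519 1399 were called higher and 2416 lower. In bulk RNA, fewer cells in a phase of the cell cycle and less RNA per cell cannot be told apart.

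**Figure D3:**
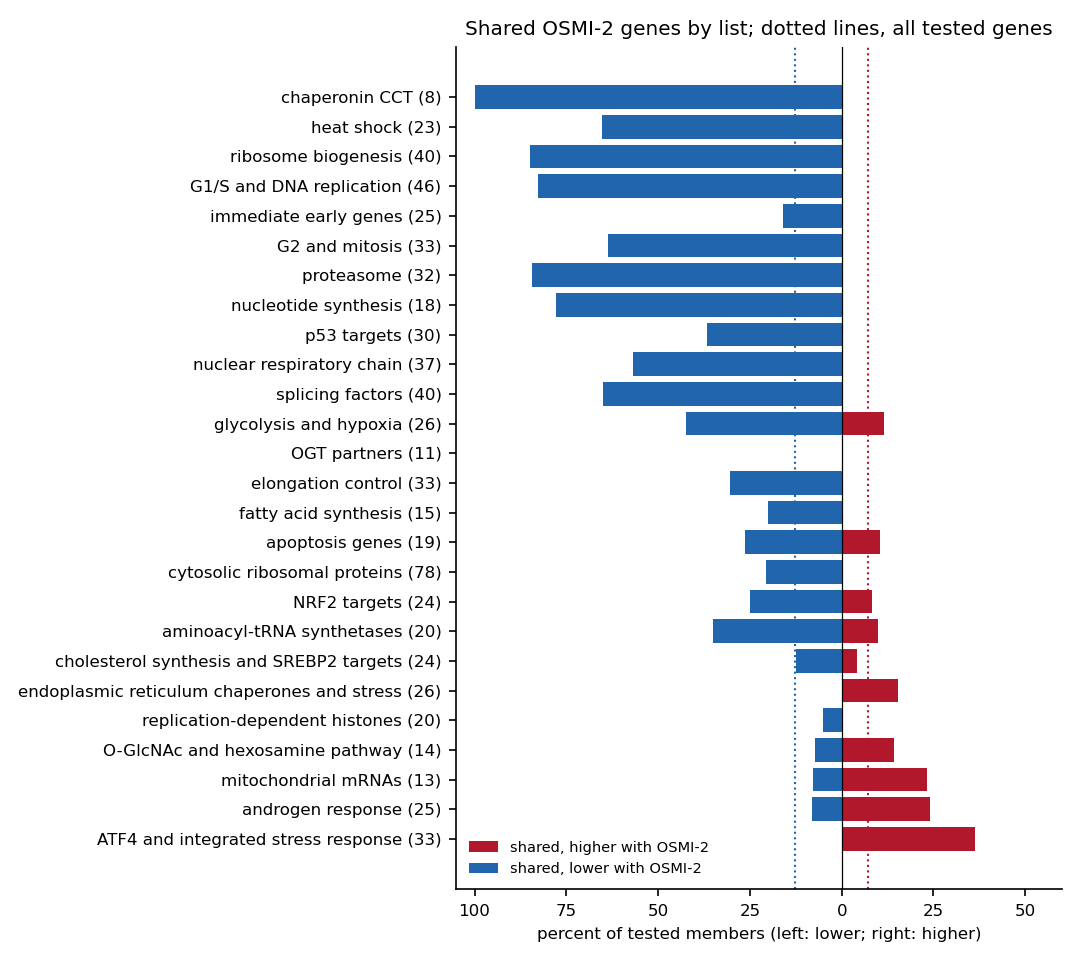
Percent of the tested members of 26 gene lists that were shared OSMI-2 genes, to the left for members lower with OSMI-2 and to the right for members higher, with the number tested in brackets and dotted lines at 12.6% and 7.05%, the shares over all tested genes. The chaperonin CCT reached 100% on the left and the ATF4 list 36.4% on the right.

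Genes for protein folding in the cytosol fell together. The chaperonin CCT, the ring complex that folds actin and tubulin, was lower in 8 of 8 subunit genes, all 8 shared, by 1.27-fold to 1.47-fold (adjusted p of at most 0.000996). TCP1 had 38242 and 36583 normalised counts in OSMI2 against 51755 and 60857 in Control, and 56627 and 60457 in Combination against 81950 and 87179 in AT7519. It fell 1.47-fold (log2 change -0.56, SE 0.055, adjusted p = 0.00031), and CCT6A and CCT2 each fell with a log2 change of -0.50. The median of the 8 genes was -0.45 in OSMI2 against Control and -0.44 in Combination against AT7519, and 8 of 8 stayed called lower on each of the 4 other scales and without each library. TCP1 overlaps ACAT2 on the other strand.

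Of the heat shock genes 15 of 23 tested fell, all 15 shared, and 0 rose (median -0.40). HSPH1, a nucleotide exchange factor of HSP70 chaperones, had 8380 and 10657 normalised counts in OSMI2 against 12718 and 16600 in Control, and 11592 and 14695 in Combination against 20322 and 20725 in AT7519. It fell 1.55-fold (adjusted p = 0.00147). The chaperone HSP90AA1 fell 1.52-fold (adjusted p = 0.000327), and DNAJB1, a J-domain co-chaperone, fell 1.54-fold (adjusted p = 0.00617). DNAJB1 was 1.24-fold lower without AT7519 (adjusted p = 0.236) and 1.91-fold with it (adjusted p = 0.000388). WDR20 overlaps HSP90AA1 and TECR overlaps DNAJB1 on the other strand. HSF1, the heat shock transcription factor, had a log2 change of -0.11 (adjusted p = 0.269) and HSPA8 one of -0.09 (adjusted p = 0.507). Between 13 and 17 members were called lower on the 4 other scales. The heat shock element, as 3 GAA units in alternating direction, lay on either strand in the 250 bases before the start of 4 of 21 matched promoters of this list and 0 of 7 of the chaperonin, against 120 of 27305 promoters of all genes (0.439%) and 33 of 11340 of tested genes (0.291%). The 4 were those of DNAJB6, which fell, and of HSPA8, CHORDC1 and SERPINH1, which were not called. The list was chosen by function, so its share of elements describes the list and does not bear on OSMI-2.

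Ribosome assembly genes were lower in 34 of 40, all 34 shared, by 1.16-fold to 1.63-fold (median -0.38, adjusted p of at most 0.0148). RRS1, an assembly factor of the large subunit, had 2764 and 2711 normalised counts in OSMI2 against 3492 and 4003 in Control, and 2025 and 1711 in Combination against 3898 and 3345 in AT7519. It fell 1.63-fold (log2 change -0.70, SE 0.11, adjusted p = 0.00139), and another annotated gene shares its strand there. WDR43, a factor of the small subunit processome, fell 1.61-fold (adjusted p = 0.000783), and LYAR, a nucleolar regulator of rRNA processing, fell 1.56-fold (adjusted p = 0.000793). The count was 32 to 37 on the 4 other scales and 34 to 36 without single libraries.

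The ribosomal proteins themselves moved much less. Of 78 cytosolic ribosomal protein genes 21 fell, 16 of them shared, with a median of -0.099, and RPS26, the deepest fall among the shared ones, was 1.22-fold lower (adjusted p = 0.00277). This count was not stable. It was 1 or 2 at equal upper quartiles, equal totals and after quantile normalisation, where the median was between -0.020 and 0.0050, and 33 on the mitochondrial scale. It was 10 without Control replicate 1, Control replicate 2, OSMI2 replicate 1 or OSMI2 replicate 2, 11 without AT7519 replicate 1 and 13 without Combination replicate 1. Many of these genes have processed pseudogenes with which reads can be shared.

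Nucleotide synthesis was lower in 14 of 18 genes, all 14 shared (median -0.24). UMPS and CTPS1, of pyrimidine synthesis, fell 1.40-fold and 1.36-fold (adjusted p of at most 0.000973), and PPAT, the first committed enzyme of purine synthesis, fell 1.30-fold (adjusted p = 0.0015). CAD, the large enzyme that starts pyrimidine synthesis, was not called. The count was 7 on the total, upper quartile and quantile scales, 15 on the mitochondrial scale, and 9 without Control replicate 2 or Combination replicate 2.

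Genes that cells switch on to enter S phase and copy DNA fell as a block, with 40 of 46 lower, 38 of them shared, and 0 higher (median -0.36). Many are textbook targets of E2F factors, so the 250 bases before the start of each gene were searched for the E2F spellings TTTCCCGC and TTTGGCGC on both strands. Promoters from RefSeq (GRCh38.p14) were matched for 40 of the 46 genes, and 16 of them (40.0%) held a match, against 536 of 27305 promoters of all genes (1.96%) and 348 of 11340 promoters of tested genes (3.07%). Since the list holds known E2F targets, a high share was fixed by its choice and does not bear on OSMI-2. Of the 16 genes with a match POLE and LIG1 were not called, and of all 46 listed 40 were lower. Of the G2 and mitosis list 2 of 28 promoters held one (7.14%). Shown here, because their genes were shared falls and carry the spelling in capitals, are the windows of CDC25A (chr3:48188418-48188667), MCM6 (chr2:135876444-135876693), PCNA (chr20:5126623-5126872) and E2F1 (chr20:33686386-33686635), all on the minus strand and printed 5′ to 3′ along the gene. They were chosen after their values were seen, and a match is a description of letters only.
CDC25A: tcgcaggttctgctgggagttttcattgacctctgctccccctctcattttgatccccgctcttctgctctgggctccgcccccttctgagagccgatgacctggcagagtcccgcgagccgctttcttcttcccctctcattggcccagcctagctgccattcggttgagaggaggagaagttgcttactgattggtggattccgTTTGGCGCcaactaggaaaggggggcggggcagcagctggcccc
MCM6: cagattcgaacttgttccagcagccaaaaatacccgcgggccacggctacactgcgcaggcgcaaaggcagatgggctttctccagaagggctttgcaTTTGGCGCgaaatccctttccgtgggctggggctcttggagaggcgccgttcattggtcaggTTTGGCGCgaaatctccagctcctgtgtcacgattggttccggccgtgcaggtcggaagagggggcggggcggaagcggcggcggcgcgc
PCNA: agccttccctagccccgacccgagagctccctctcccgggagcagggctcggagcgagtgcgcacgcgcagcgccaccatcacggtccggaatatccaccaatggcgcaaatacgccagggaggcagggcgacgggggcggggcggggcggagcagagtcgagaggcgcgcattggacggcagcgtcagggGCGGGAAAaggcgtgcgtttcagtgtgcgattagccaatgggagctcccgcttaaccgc
E2F1: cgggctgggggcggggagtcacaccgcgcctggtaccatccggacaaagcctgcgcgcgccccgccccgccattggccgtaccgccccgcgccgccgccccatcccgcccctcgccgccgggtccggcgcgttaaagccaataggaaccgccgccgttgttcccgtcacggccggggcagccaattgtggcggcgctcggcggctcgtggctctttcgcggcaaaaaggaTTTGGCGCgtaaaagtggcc

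CDC25A, the phosphatase that activates cyclin-dependent kinases at the start of S phase, led the list. It had 2739 and 2269 normalised counts in OSMI2 against 3563 and 4139 in Control, and 1321 and 1173 in Combination against 2605 and 2931 in AT7519. It fell 1.85-fold (log2 change -0.89, SE 0.11, adjusted p = 0.000699). MCM6, a subunit of the replicative helicase, had 11636 and 10238 in OSMI2 against 15587 and 16209 in Control, and 12632 and 12350 in Combination against 18589 and 17692 in AT7519 (1.45-fold lower, adjusted p = 0.00031). PCNA, the sliding clamp of DNA polymerases, fell 1.35-fold (adjusted p = 0.00134), and E2F1 itself fell 1.27-fold (adjusted p = 0.00862). MCM10 fell 1.5-fold and the flap endonuclease gene FEN1, which shares its strand with FADS2, fell 1.49-fold (adjusted p of at most 0.000837). CDT1 and DTL were called lower but overlapped in 1 state. On the 4 other scales 27 to 40 members were called lower, and without single libraries 29 to 40.

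Genes of G2 and mitosis fell in 22 of 33, with 21 shared and 0 higher (median -0.29). AURKA, a spindle kinase, had 4842 and 4677 normalised counts in OSMI2 against 6611 and 6689 in Control, and 1219 and 1439 in Combination against 2438 and 2187 in AT7519. It fell 1.56-fold (adjusted p = 0.000783). PLK1, which overlaps ERN2 on the other strand, fell 1.46-fold (adjusted p = 0.00208), and CDK1, the mitotic kinase, fell 1.45-fold (adjusted p = 0.000371). TOP2A and AURKB were not called. On the 4 other scales 17 to 26 members fell and 0 or 1 rose. Replication-dependent histones, which peak in S phase and mostly lack poly(A) tails, did not share the pattern, as 1 of 20 was called, HIST1H1C (1.26-fold lower, adjusted p = 0.027), and their median of 0.039 turned to -0.058 after quantile normalisation and -0.054 on the mitochondrial scale. HIST1H1C passed at neither equal totals, equal upper quartiles nor after quantile normalisation, and was lost without Control replicate 2, OSMI2 replicate 1, AT7519 replicate 2 or Combination replicate 1 (adjusted p up to 0.096).

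The proteasome fell in 27 of 32 genes, all 27 shared, by 1.12-fold to 1.38-fold (median -0.29, adjusted p of at most 0.0319). PSMD12, a lid subunit, had 11025 and 11107 normalised counts in OSMI2 against 13652 and 14772 in Control, and 10305 and 10098 in Combination against 15593 and 14827 in AT7519. It fell 1.38-fold (adjusted p = 0.000665). PSMD14, the lid deubiquitinase, and PSMA3, of the core ring, fell 1.34-fold and 1.33-fold. NFE2L1, the transcription factor that raises proteasome genes when the proteasome is blocked, was not called. Splicing factors were lower in 26 of 40, all 26 shared (median -0.21), led by SNRPD1, HNRNPD and SRSF3, which fell 1.35-fold, 1.34-fold and 1.33-fold (adjusted p of at most 0.00172). Called members numbered 21 to 29 for the proteasome on the 4 other scales, and 13 to 30 for splicing factors, with 13 after quantile normalisation and 15 at equal totals or upper quartiles.

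Energy metabolism moved on both sides. Of 26 tested genes of glycolysis and the hypoxia response 11 fell and 3 rose, all 14 shared. The falls were 8 at equal totals or upper quartiles, 7 after quantile normalisation and 13 on the mitochondrial scale. The 11 falls were all glycolytic enzymes. LDHA, lactate dehydrogenase, had 51380 and 51593 normalised counts in OSMI2 against 72641 and 79007 in Control, and 69048 and 75469 in Combination against 112380 and 99001 in AT7519. It fell 1.47-fold (log2 change -0.55, SE 0.052, adjusted p = 0.000249), TPI1 fell 1.35-fold and ENO1 1.27-fold. The 3 rises were VEGFA, NDRG1 and NDUFA4L2, which respond to hypoxia, while BNIP3, PDK1 and EGLN3, which do so too, were not called. NDUFA4L2 had 574 and 392 in OSMI2 against 228 and 187 in Control, and 504 and 454 in Combination against 364 and 262 in AT7519 (1.88-fold higher, adjusted p = 0.00379), with SHMT2 across it on the other strand. NDRG1 (1.26-fold higher, adjusted p = 0.023) was lost without AT7519 replicate 1 or Combination replicate 2 (adjusted p up to 0.0603).

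Nuclear genes of the respiratory chain fell in 22 of 37, with 21 shared (median -0.22), among them UQCRFS1, SDHB and NDUFB10 (1.31-fold, 1.31-fold and 1.28-fold lower, adjusted p of at most 0.00282). The count was 14 at equal totals or upper quartiles, 10 after quantile normalisation and 27 on the mitochondrial scale. Of the 13 mRNAs of the mitochondrial genome 5 rose, 3 of them shared, and 1 fell. The fall was MT-ND6, the only one of the 13 encoded on the light strand, with 119240 and 134210 normalised counts in OSMI2 against 146420 and 163180 in Control, and 248860 and 203160 in Combination against 275410 and 263850 in AT7519 (1.21-fold lower, adjusted p = 0.0106). MT-ND6 passed without each library, but at neither equal upper quartiles nor after quantile normalisation. The count of 5 rises was 1 without Control replicate 2, OSMI2 replicate 2, AT7519 replicate 2 or Combination replicate 1, 2 without Control replicate 1 and 3 without Combination replicate 2, and it ran between 0 and 8 on the 4 other scales.

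NRF2 targets, the genes of antioxidant defence, were mixed, with 7 of 24 lower (6 shared) and 2 higher. PRDX1, a peroxiredoxin, fell 1.38-fold (adjusted p = 0.00031), and TKT and TXN fell 1.27-fold and 1.26-fold, while NFE2L2, which encodes NRF2, was not called in the main effect. The list median of -0.067 was 0.0125 on the total scale and 0.0115 on the upper quartile scale. There 4 fell and 3 rose, and 3 fell and 3 rose after quantile normalisation. SLC7A11 and FTH1 rose. FTH1, the ferritin heavy chain, was lost without Control replicate 2, OSMI2 replicate 1, AT7519 replicate 2 or either Combination library (adjusted p up to 0.0944), so the count of 2 rises was 1 in those 5 cases.

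Against this background of falls, ATF4 targets and other genes of the integrated stress response rose in 13 of 33, with 12 shared and 0 lower (median 0.22, against -0.018 for all tested genes). This response is known to follow amino acid shortage or endoplasmic reticulum stress. SLC7A11, the cystine transporter, had 51297 and 40160 normalised counts in OSMI2 against 28457 and 30264 in Control, and 39304 and 31126 in Combination against 22400 and 20013 in AT7519. It rose 1.60-fold (log2 change 0.68, SE 0.085, adjusted p = 0.000666). VEGFA, also an ATF4 target, had 16763 and 15755 in OSMI2 against 12509 and 11442 in Control, and 20064 and 20624 in Combination against 12408 and 12864 in AT7519 (1.48-fold higher, adjusted p = 0.000314). PCK2, a mitochondrial enzyme of phosphoenolpyruvate synthesis, rose 1.44-fold (adjusted p = 0.000694), ASNS, asparagine synthetase, rose 1.26-fold (adjusted p = 0.00982), and ATF4 itself rose 1.15-fold (adjusted p = 0.0425).

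Several members that often mark a strong stress response were not called. DDIT3 had a log2 change of 0.25 (adjusted p = 0.152), TRIB3 of 0.32 (adjusted p = 0.0846), CHAC1 of -0.30 (adjusted p = 0.24) and SESN2 of 0.09 (adjusted p = 0.74). The median was 0.21 in OSMI2 against Control and 0.20 in Combination against AT7519. On the 4 other scales 4 to 24 members rose, with 4 on the mitochondrial scale and 22 to 24 on the other 3, and 0 fell on any. The count was 6 without Combination replicate 1 and 7 without OSMI2 replicate 1. ALDH1L2, which C12orf45 overlaps on the other strand, rose 1.45-fold (adjusted p = 0.0332) but passed only without Control replicate 1 or OSMI2 replicate 2 when libraries were left out.

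Aminoacyl-tRNA synthetases, which charge tRNAs and of which many are ATF4 targets, split into 2 higher and 7 lower of 20, all 9 shared. FARSB and FARSA, the 2 subunits of the phenylalanine enzyme, fell 1.37-fold and 1.26-fold, and VARS fell 1.28-fold (adjusted p of at most 0.00192). SARS and AARS rose 1.18-fold and 1.13-fold (adjusted p of at most 0.035). These 2 rises were not called on the mitochondrial scale, and neither passed in most cases with a library left out, when the count of rises was 0 to 4. The list median of -0.024 turned to between 0.055 and 0.095 on the total, upper quartile and quantile scales. The falls numbered 5 to 7 on the 4 other scales and without single libraries.

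Endoplasmic reticulum genes gave 4 rises of 26 in the main effect, all shared, and 0 falls, but the list medians of the 2 states had opposite signs. In OSMI2 against Control 22 of 26 were above 0 (median 0.17), with 3 called higher and 0 lower, while in Combination against AT7519 19 were below 0 (median -0.058), with 3 called higher and 3 lower. Combination against AT7519 called 2416 of all 19393 tested genes lower and 1399 higher. The interaction was called in 1 of the 26 endoplasmic reticulum genes. DNAJB9, a co-chaperone induced by the IRE1 branch of the unfolded protein response, had 4260 and 4199 normalised counts in OSMI2 against 1797 and 2438 in Control, and 1906 and 1756 in Combination against 1267 and 1468 in AT7519. It rose 1.65-fold (adjusted p = 0.00266), with PNPLA8 and THAP5 across it on the other strand. SEC24D, a coat protein of vesicles leaving the endoplasmic reticulum, rose 1.45-fold (adjusted p = 0.00133). ERN1, which encodes IRE1, rose 1.22-fold (adjusted p = 0.0306). This call was lost on the mitochondrial scale and without Control replicate 2, OSMI2 replicate 1, Combination replicate 1 or either AT7519 library (adjusted p up to 0.0987). The chaperones HSPA5, HSP90B1 and CALR were not called, and the list median of 0.026 was -0.067 on the mitochondrial scale, where 3 members fell and 2 rose. At equal totals or upper quartiles 8 members rose and after quantile normalisation 9, with 0 falls on these scales.

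The target of OSMI-2 itself rose. OGT had 31597 and 30152 normalised counts in OSMI2 against 24330 and 23509 in Control, and 38849 and 37923 in Combination against 23384 and 29175 in AT7519. Both libraries with OSMI-2 lay above both without in each state, and OGT rose 1.38-fold (log2 change 0.46, SE 0.068, adjusted p = 0.00114). GFPT1, the rate-limiting enzyme of the hexosamine pathway, had 17637 and 18318 in OSMI2 against 13557 and 15434 in Control, and 21641 and 24931 in Combination against 19325 and 18221 in AT7519 (1.24-fold higher, adjusted p = 0.00444), but did not pass on the mitochondrial scale. GNPDA2, which turns glucosamine phosphate back to fructose phosphate and overlaps GUF1 on the other strand, fell 1.22-fold (adjusted p = 0.00543). These were 2 rises and 1 fall among 14 genes of O-GlcNAc cycling and hexosamine synthesis, with 11 not called. Leaving out Control replicate 1 gave 3 falls, and on the 4 other scales 1 to 4 rose and 1 to 3 fell.

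MGEA5, which encodes the enzyme that removes O-GlcNAc, had no shared effect. It had 19571 and 20927 normalised counts in OSMI2 against 28413 and 24816 in Control, and 27257 and 28199 in Combination against 24781 and 23336 in AT7519. Both OSMI2 libraries were below both Control libraries, while both Combination libraries were above both AT7519 libraries. The main effect was -0.09 (log2, adjusted p = 0.555), and the interaction passed (log2 difference 0.60, SE 0.11, adjusted p = 0.0243). Among 11 genes for OGT partners such as HCFC1, BAP1 and the TET enzymes 1 was called, SIN3A (log2 change -0.40, adjusted p = 0.0255), whose libraries overlapped in a state. That call was lost without AT7519 replicate 2 or either Combination library, and on the 4 other scales 0 members were called except on the mitochondrial one, where 5 were lower.

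Androgen response genes rose in 6 of 25 and fell in 3, with 6 rises and 2 falls shared (median 0.14). STEAP2, a metalloreductase, had 99599 and 109960 normalised counts in OSMI2 against 76590 and 79324 in Control, and 69238 and 74909 in Combination against 55335 and 53453 in AT7519. It rose 1.33-fold (adjusted p = 0.000365). KLK2, a kallikrein protease, rose 1.41-fold (adjusted p = 0.00793) and PMEPA1, which restrains TGF-beta signalling, 1.34-fold (adjusted p = 0.00375). KLK3, prostate-specific antigen, had 103340 and 127260 in OSMI2 against 93639 and 98725 in Control, and 118890 and 156730 in Combination against 104020 and 104100 in AT7519. It rose 1.25-fold (adjusted p = 0.0163) and was lost without OSMI2 replicate 2 (adjusted p = 0.0518). KLK2 and KLK3 are close relatives. FKBP5, an immunophilin often used as a reporter of androgen receptor activity, fell 1.25-fold (adjusted p = 0.00407), PPAP2A fell 1.33-fold, and TMPRSS2 was not called (log2 change -0.00098, adjusted p = 0.995). The count of falls was 5 without Control replicate 1 or OSMI2 replicate 1, and on the mitochondrial scale 4 members rose and 5 fell. At equal totals or after quantile normalisation 10 rose and 2 fell, and at equal upper quartiles 9 rose and 2 fell.

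Of 33 genes of transcription elongation, the step on which CDK9 acts, 11 fell, 10 of them shared, and 0 rose (median -0.15). In OSMI2 against Control 1 was called lower and 0 higher (median -0.12), where 461 of all 19393 tested genes were called lower. In Combination against AT7519 15 were called lower and 1 higher (median -0.23), where 2416 of all tested genes were called lower. CDK9 had 4965 and 4905 normalised counts in OSMI2 against 4872 and 4966 in Control, and 6621 and 5663 in Combination against 8127 and 8640 in AT7519. Groups overlapped without AT7519 and not with it, and the main effect was -0.22 (log2, adjusted p = 0.094). HEXIM1, which holds P-TEFb inactive, had a main effect of 0.07 (adjusted p = 0.549). ELL and MLLT3, of the super elongation complex, fell 1.47-fold and 1.39-fold (adjusted p of at most 0.0171). LEO1, of the PAF1 complex, fell 1.31-fold (adjusted p = 0.000973) with MAPK6 and TMOD3 across it on the other strand. ELL was 1.13-fold lower without AT7519 (adjusted p = 0.561) and 1.91-fold with it (adjusted p = 0.000411). MLLT3 was 1.20-fold lower without AT7519 (adjusted p = 0.32) and 1.62-fold with it (adjusted p = 0.00247). ELL did not pass without AT7519 replicate 2 (adjusted p = 0.0555). The count was 4 or 5 on the total, upper quartile and quantile scales, 17 on the mitochondrial scale, and 7, 7 and 5 without OSMI2 replicate 2, Combination replicate 1 and Combination replicate 2.

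MCL1 and MYC, whose short-lived mRNAs are known to depend on CDK9, were lower with OSMI-2 mainly when AT7519 was present. For each gene both AT7519 libraries lay above both Control libraries, so the fall in Combination was measured from a higher level. A part of CDK9 in these falls was not tested. MCL1, an anti-apoptotic BCL2 relative, had 21629 and 22603 normalised counts in OSMI2 against 25198 and 25973 in Control, and 20373 and 20099 in Combination against 38254 and 32764 in AT7519. It fell 1.42-fold and was shared (adjusted p = 0.00458), but the interaction passed (log2 difference -0.60, SE 0.11, adjusted p = 0.0241). MYC had 13380 and 13845 in OSMI2 against 13649 and 15319 in Control, and 9927 and 10353 in Combination against 15662 and 15943 in AT7519. Its groups overlapped without AT7519, and its fall (1.29-fold, adjusted p = 0.0175) was not shared. MYC was lost at equal totals and after quantile normalisation, and without AT7519 replicate 2 or either Combination library (adjusted p up to 0.066). CCND1, cyclin D1, had 19598 and 19691 in OSMI2 against 21871 and 24885 in Control, and 12457 and 15332 in Combination against 11942 and 11187 in AT7519. Its 2 states pointed in opposite directions (log2 changes -0.25 and 0.26, adjusted p = 0.19 and 0.0788), and the main effect was 0.0049 (adjusted p = 0.98).

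Of 19 tested apoptosis genes 6 fell and 2 rose, 5 and 2 of them shared. BAK1, a pore-forming BCL2 relative, and BIRC5, an inhibitor of apoptosis that also serves mitosis, fell 1.36-fold and 1.35-fold (adjusted p of at most 0.00631). BAK1 was 1.15-fold lower without AT7519 (adjusted p = 0.274) and 1.62-fold with it (adjusted p = 0.000257). BMF, a BH3-only protein, had 2104 and 2195 normalised counts in OSMI2 against 1761 and 1615 in Control, and 746 and 751 in Combination against 536 and 443 in AT7519 (1.40-fold higher, adjusted p = 0.00462). The count of falls was 3 without Combination replicate 1, and that of rises was 1 whichever of the 8 libraries was left out, since BOK (1.18-fold higher, adjusted p = 0.048) then missed the threshold. Of 30 p53 targets 14 fell, 11 of them shared, and 0 rose. The median was -0.10 in OSMI2 against Control, with 2 called higher and 2 lower, and -0.38 in Combination against AT7519, with 1 called higher and 16 lower. Among all 19393 tested genes 461 were called lower in OSMI2 against Control and 2416 in Combination against AT7519. The interaction was called in 6 of the 30 p53 targets. AEN, an apoptosis-enhancing nuclease, had 4759 and 4445 in OSMI2 against 5934 and 6342 in Control, and 6564 and 6545 in Combination against 10605 and 13036 in AT7519 (1.55-fold lower, adjusted p = 0.00108). PPM1D, a phosphatase that turns p53 signalling down, had a log2 change of -0.15 in OSMI2 against Control (adjusted p = 0.552) and fell 2.81-fold in Combination against AT7519 (adjusted p = 3.05e-05), with an interaction at adjusted p = 0.00524. Its main effect (1.77-fold lower, adjusted p = 0.0146) was lost without AT7519 replicate 2 or Combination replicate 1 (adjusted p up to 0.0572). CDKN1A, the p21 cell cycle inhibitor, was called lower (log2 change -0.34, adjusted p = 0.0217), but its libraries overlapped without AT7519, and the call was lost at equal totals, equal upper quartiles and after quantile normalisation, and without AT7519 replicate 2 or either Combination library (adjusted p up to 0.0758). The 14 p53 targets were 7 without AT7519 replicate 2 or Combination replicate 1, 9 without AT7519 replicate 1 or Combination replicate 2, and 7 or 8 on the total, upper quartile and quantile scales, where 1 rose.

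**Figure D4:**
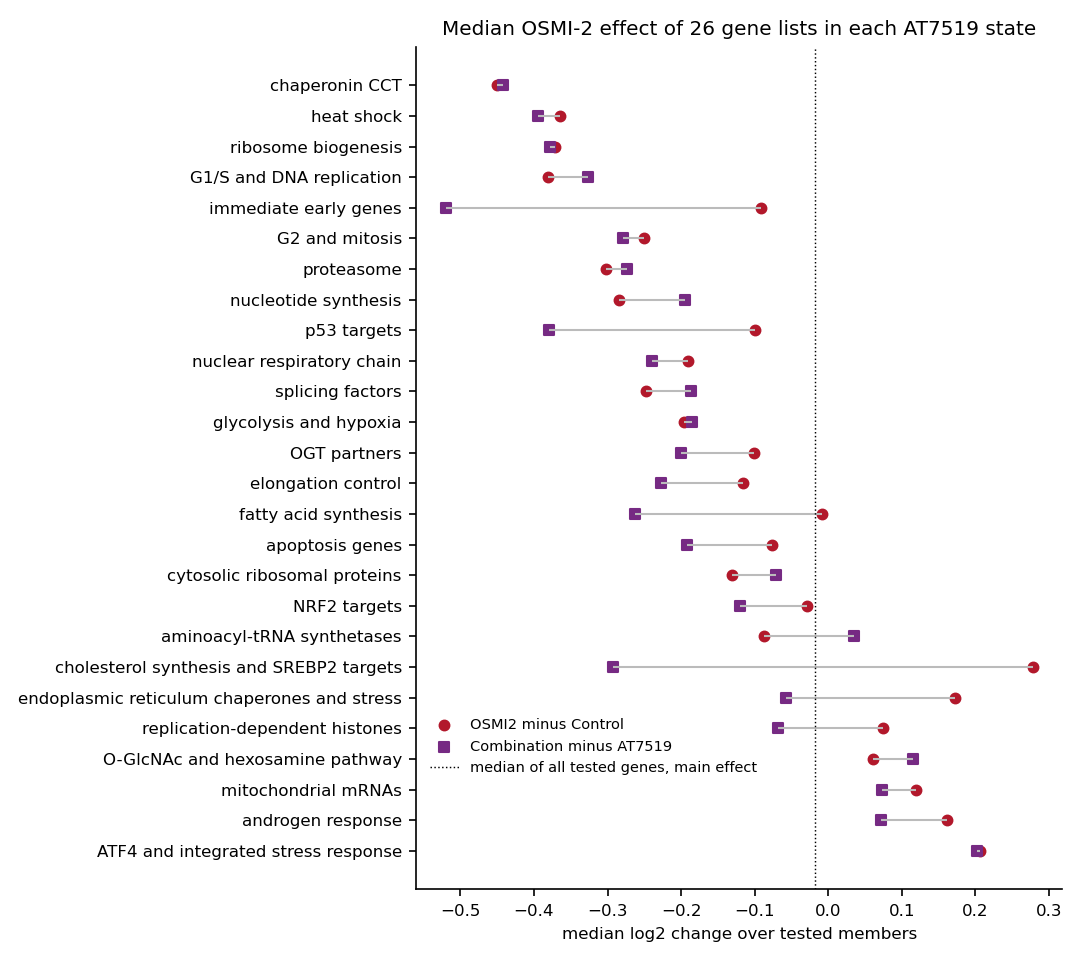
Median log2 change over the tested members of 26 gene lists in OSMI2 minus Control (red circles) and Combination minus AT7519 (purple squares), with a dotted line at the median main effect of all tested genes, -0.018. The 2 symbols nearly coincide for the chaperonin CCT (-0.45 and -0.44) and the ATF4 list (0.21 and 0.20), and lie farthest apart for cholesterol synthesis (0.28 and -0.29).

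Cholesterol synthesis genes had medians of opposite sign in the 2 states. Of 24 tested cholesterol genes 21 were above 0 in OSMI2 against Control, where 8 were called higher and 1 lower, while 22 were below 0 in Combination against AT7519, where 9 were called lower and 0 higher. The median was 0.28 in OSMI2 against Control and -0.29 in Combination against AT7519. An interaction was called in 10 of the 24, against 1.04% of all tested genes. Among all 19393 tested genes 125 were called higher in OSMI2 against Control, and 2416 lower in Combination against AT7519.

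INSIG1, which retains the SREBP activator in the endoplasmic reticulum and was chosen after its values were seen, had 26376 and 33583 normalised counts in OSMI2 against 19028 and 13180 in Control, and 8531 and 10909 in Combination against 14182 and 10558 in AT7519. It rose 1.88-fold in OSMI2 against Control (adjusted p = 0.017) and had a log2 change of -0.34 in Combination against AT7519 (adjusted p = 0.187). Its interaction (adjusted p = 0.0274) was called without only 2 of the 8 libraries when each was left out, with adjusted p up to 0.163. A few cholesterol genes were shared. MVD, an enzyme of the mevalonate pathway, had 6007 and 7073 normalised counts in OSMI2 against 3476 and 3098 in Control, and 3885 and 4401 in Combination against 3591 and 3748 in AT7519 (1.5-fold higher, adjusted p = 0.0114), with an interaction at adjusted p = 0.0195. EBP, a late enzyme of the pathway, and ACAT2 fell 1.45-fold and 1.37-fold (adjusted p of at most 0.00198). The main-effect median of the list, -0.0093, turned to between 0.070 and 0.089 on the total, upper quartile and quantile scales, and the 1 rise became 4 at equal totals, 5 at equal upper quartiles or after quantile normalisation, 3 without AT7519 replicate 1 and 4 without Combination replicate 1.

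In fatty acid synthesis 4 of 15 genes fell in the main effect, 3 of them shared, and 0 rose. In OSMI2 against Control 2 were called higher and 0 lower (median -0.0081), and in Combination against AT7519 8 were called lower and 0 higher (median -0.26), with 13 of 15 below 0. Among all 19393 tested genes 461 were called lower in OSMI2 against Control and 2416 in Combination against AT7519. The interaction was called in 1 of the 15 fatty acid genes. ELOVL6, which lengthens fatty acids, had 8068 and 9122 normalised counts in OSMI2 against 10690 and 10382 in Control, and 6878 and 8360 in Combination against 13669 and 10383 in AT7519 (1.39-fold lower, adjusted p = 0.00673). FASN, SCD and SREBF1 were not called. The count was 7 without OSMI2 replicate 2 and 7 on the mitochondrial scale, and after quantile normalisation 2 rose and 2 fell.

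Of 25 tested immediate early genes, which growth signals induce within minutes, 8 fell, 4 of them shared, and 0 rose. Their median was -0.091 in OSMI2 against Control and -0.52 in Combination against AT7519, and 6 had an interaction called. DUSP5, a nuclear ERK phosphatase, had 73.6 and 58.8 normalised counts in OSMI2 against 126 and 129 in Control, and 11.3 and 10.9 in Combination against 27.9 and 19.3 in AT7519 (1.96-fold lower, adjusted p = 0.0146). Its log2 change was -0.94 in OSMI2 against Control and -1.0 in Combination against AT7519. FOS and EGR1 were tested and not called, and FOSL1, EGR2, EGR3, IER3 and CTGF were below the mean of 10. The count was 5 without AT7519 replicate 1, 2 without AT7519 replicate 2 and 4 without either Combination library, and 2 members rose on the total, upper quartile and quantile scales. EFNA5, a membrane-bound ligand of Eph receptors and with PPM1D among the 3 lowest interaction p-values, had 8495 and 9603 in OSMI2 against 8558 and 9852 in Control, and 3997 and 4111 in Combination against 8834 and 8760 in AT7519. It fell 2.17-fold in Combination against AT7519 (adjusted p = 3.05e-05), had a log2 change of -0.02 in OSMI2 against Control (adjusted p = 0.935), and differed between the states (adjusted p = 0.00524). Its main effect was lost without either AT7519 library or either Combination library (adjusted p up to 0.105), and on 3 of the 4 other scales.

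**Figure D5:**
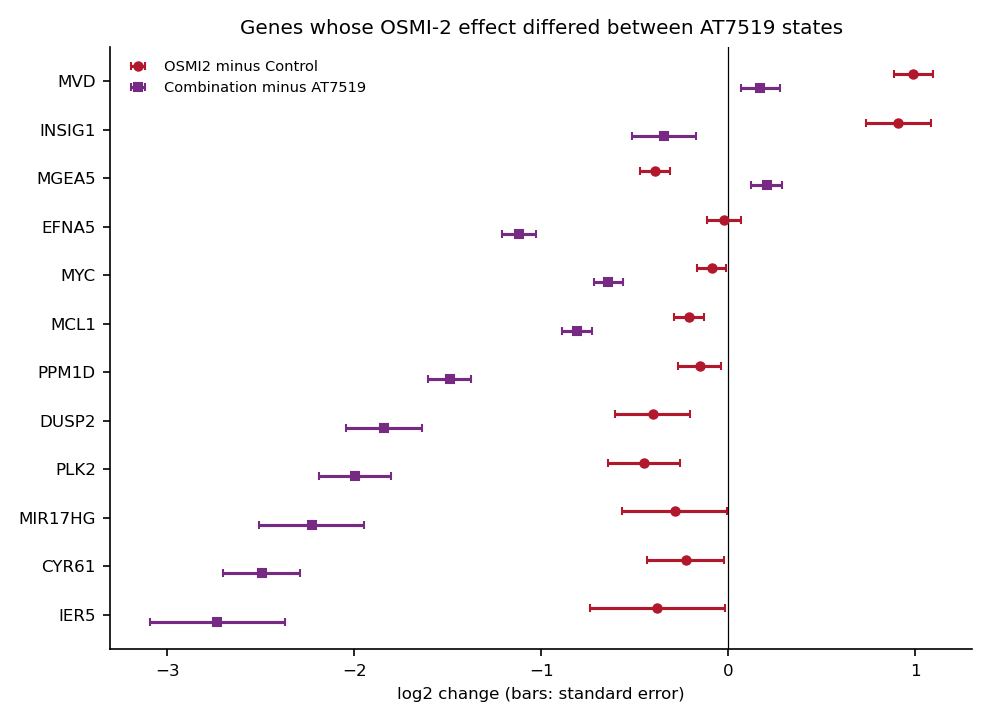
Log2 change of 12 genes with an interaction called, in OSMI2 minus Control (red circles) and Combination minus AT7519 (purple squares), with bars of 1 standard error. INSIG1 and MGEA5 have estimates on opposite sides of 0, MVD is higher in OSMI2 against Control, and in the other 9 genes the square lies to the left of the circle, farthest for IER5 (-2.73 against -0.38).

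By type of transcript, shared falls were mostly protein-coding. Of 13326 protein-coding genes tested 967 were shared rises (7.26%) and 2321 shared falls (17.4%), while of 746 long non-coding RNAs 75 were shared rises (10.1%) and 20 shared falls (2.68%). Over all tested genes the shares were 7.05% and 12.6%. Falls were also few among 3606 genes with no annotation match, with 254 shared rises (7.04%) and 51 shared falls (1.41%). Of 1322 pseudogenes 4.61% were shared rises and 2.42% shared falls, and of 369 small RNAs 2.71% and 2.98%. Median levels of these classes were 53.5, 59.5 and 33.2 normalised counts, in that order. The median main effect was -0.045 (log2) for protein-coding genes and 0.13 for long non-coding RNAs. Long non-coding RNAs were sampled with fewer reads, at a median level of 108 normalised counts against 2440 for protein-coding genes, and the part of depth in this difference was not tested. Among protein-coding genes the median number of exons was 11 for shared rises and 7 for shared falls, against 8 for all tested ones, and the median gene span was 32106 bp for shared rises and 27738 bp for shared falls, against 33196 bp for all.

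The line for testing, a mean of 10 normalised counts, fell between DOCK10, whose libraries ranged from 0 to 22 with a mean of 10, and RP11-552F3.12, with a mean of 9.99 and a range of 2.49 to 18.5.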

How the data were processed

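RNA of LNCaP cells was made into strand-specific TruSeq libraries, per the labels' protocols. The deposited table holds a normalised signal per gene, that is reads divided by 1 factor per library. In it 100% of values were whole multiples of 1 step per library within a tolerance of 0.01, so the reads could be recovered. The submitters' processing notes name STAR, HTSeq, DESeq2, hg19 and GRCh37. Versions, roles and the strand setting at counting were not given in the sources used. The table's 28 lines with no gene name were dropped. Of the 19393 tested genes 81.4% matched a GENCODE gene by current or older symbol, which gave gene type, span, exons and overlaps. Promoters came from a separate match to RefSeq (GRCh38.p14). Other spellings were searched too. The CCAAT and ATF4 composite lay in 1 of 25 promoters of the ATF4 list, that of CHAC1, against 0.423% of tested genes. The sterol regulatory element lay in 1 of 18 promoters of the cholesterol list, that of SREBF2, against 0.864% of tested genes. Neither CHAC1 nor SREBF2 was called in the main effect.

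Genes with a mean of at least 10 were fitted on log2(value + 1) with limma 3.58.1 (R 4.3.3) and a mean-variance trend, AT7519 and OSMI-2 being additive terms, so fold changes understate those of low genes. A model of 4 group means gave the effect in each state and their difference, the interaction. All p-values are two-sided and Benjamini-Hochberg adjusted over all tested genes, with a threshold of 0.05. The fits were tested on simulated data. Alternatives were other pseudocounts, filters and scales, limma without trend, edgeR 4.0.16 quasi-likelihood (3848 genes called) and DESeq2 1.42.0 (4855 genes called) on the recovered reads, a replicate block, and leaving out each library.

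Genes named are the 12 largest rises and 12 largest falls among shared genes with a mean of at least 50, up to 3 shared members of each list in each direction, 9 genes always given (OGT and MGEA5, CDK9 and HEXIM1, the growth genes MYC, CCND1 and CDKN1A, MCL1, and KLK3), and the 3 lowest interaction p-values, of which 1 gene is not reported here. Other genes, mostly list members that were not called, were picked after their values were seen. The members and lists were chosen with earlier results of these data known. Where counting ignored the strand, reads of a gene and its neighbour on the other strand would be mixed, which applies, beside the cases named in the report, to CCDC114, CCND1, PPAP2A, PRDX1, PSMA3 and TPI1.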

Additional observations from a re-analysis of the deposited data

Results flagged for a closer look

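For 11 of the named genes the effect of OSMI-2 in Combination against AT7519 differed from that in OSMI2 against Control by the interaction test (limma, adjusted p under the threshold). The log2 difference was -2.35 for IER5, -2.27 for CYR61, -1.94 for MIR17HG, -1.54 for PLK2, -1.44 for DUSP2, -1.34 for PPM1D, -1.09 for EFNA5, -0.597 for MCL1 and -0.553 for MYC, whose falls were deeper with AT7519. It was -0.818 for MVD, which was higher in OSMI2 than in Control, and 0.597 for MGEA5, which was lower in OSMI2 than in Control.

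When each of the 8 libraries was left out in turn, the interaction of EFNA5 passed in 8 of 8 cases. CYR61 and PPM1D passed in 5, MVD in 4, IER5, MIR17HG and MGEA5 in 3, PLK2, DUSP2 and MCL1 in 2, and MYC in 1. These fits leave 1 group with a lone library. None of the 11 passed with limma without a trend. With no filter on low values only CYR61, PPM1D and EFNA5 passed. IER5 did not pass at equal totals, at equal upper quartiles or after quantile normalisation. MYC did not pass at equal upper quartiles, after quantile normalisation or on the mitochondrial scale. MIR17HG was lost at equal upper quartiles, and MCL1 on the mitochondrial scale.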

How the results depend on the processing

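The main effect called 4067 genes, and 1623 with limma without trend. Leaving out 1 library gave 2565 to 3743. Shared genes numbered 3806, with 1623 without trend, 2553 to 3642 without single libraries, and 480 when an adjusted p under the threshold was asked of each state. The interaction was the least stable: 201 genes became 33 with no filter on low values, 118 at equal upper quartiles, 131 after quantile normalisation, 558 with DESeq2, 404 with the replicate block and 2 to 490 without single libraries. Without trend limma called 0, with 1800 at an unadjusted p under 0.05. In the labels same-numbered libraries are tied by their number only, and whether they were paired is not known. Their deviations correlated by 0.0207 to 0.123, and the replicate block gave 4136 main and 3788 shared genes. Other scales moved the rises to between 16.3% (mitochondrial) and 62.5% (equal totals) of calls.

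Main effects of genes not called changed sign. The MGEA5 main effect was 0.00878 after quantile normalisation and -0.17 to 0.00548 without single libraries. The HEXIM1 main effect was -0.0214 on the mitochondrial scale. The CCND1 main effect was -0.0887 on that scale, -0.00236 with DESeq2 and -0.106 to 0.0927 without single libraries. List medians turned for cholesterol synthesis (0.0705, 0.0695 and 0.089 at equal totals, upper quartiles and quantiles), for aminoacyl-tRNA synthetases (0.0558, 0.0548 and 0.0945 in that order), NRF2 targets (0.0125 and 0.0115 at equal totals and upper quartiles), ribosomal proteins (0.00499 at equal quantiles), endoplasmic reticulum genes (-0.0674, mitochondrial scale) and histones (-0.0576 at equal quantiles and -0.0541 on the mitochondrial scale). The cause of these moves was not tested. Of 109 named genes called, 84 stayed called without each library. Fitted without trend, limma called 66 of these 109. With 2 libraries a group, small changes are near what the spread allows.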
